A study of Mus musculus with 2 samples.

Results

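The 37 genes described here encode proteins of the lysosome or regulators of its formation: 12 glycosidases and sulfatases, 3 lipid hydrolases, 10 cathepsins and other proteases, 7 membrane proteins, 3 soluble proteins without enzyme activity and 2 regulators of lysosome formation. They were taken by name, as 37 of 21536 mouse protein-coding genes with a transcription start site (TSS), and a peak was given to a gene when its summit lay within 10 kb of a TSS of that gene or inside the gene. The list was drawn up with results of these data known, among them that 1 of the 5 strongest peaks lies in Manba. The level of that peak and the counts of members with a peak are thus a description. Chromatin immunoprecipitation with a MEF2A antibody and sequencing (ChIP-seq) was done in CH12.LX, an immortalized B-cell lymphoma line from a female mouse of strain B10.H-2aH-4bp/Wts. The 2 biological replicates came from separate biosamples of this line, carried no treatment in the labels and formed 1 group, so no condition could be compared and no test over samples was possible. All values thus describe 1 line derived from 1 donor. Peaks that pass a limit on the irreproducible discovery rate (IDR), a measure of how alike the ranks of a peak are between lists, make up an optimal set of 31497 peaks on mm10, and a separate mm9 list has 16839. Signal is the authors' value for each peak (6.41 to 535 in the optimal set, median 34.9) and serves here to rank the peaks of each list, with rank 1 the strongest. Read depth is unknown.

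Lysosomes are acidic compartments in which hydrolases break down proteins, glycans and lipids delivered by endocytosis and autophagy. Most soluble hydrolases receive a mannose phosphate tag in the Golgi, made by the enzyme whose catalytic subunits Gnptab encodes, and many lysosomal genes are activated by TFEB and its relatives, which bind an E-box, CACGTG. In B cells the same proteases cut antigen for presentation on MHC class II. MEF2A is a MADS-box factor whose consensus is a pyrimidine, TA, 4 bases that are each A or T, TA and a purine.

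Sequence around the summits was read from the mm9 genome for 4 member peaks that carried this consensus and for the strongest peaks of Manba, Gnptab and Tfeb, the 3 members with the highest signal, to show the letters at both. Each window reaches 50 bp on both sides of the summit, on the plus strand. In the first 4 windows the capitals mark the exact consensus. They lay in introns of Psap (chr10:59748901-59749001) and Lipa (chr19:34596078-34596178), and outside the gene at Laptm5 (chr4:130463608-130463708) and Mcoln1 (chr8:3500319-3500419).
Laptm5: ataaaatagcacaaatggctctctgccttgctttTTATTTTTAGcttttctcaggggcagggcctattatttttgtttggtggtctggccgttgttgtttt
Psap: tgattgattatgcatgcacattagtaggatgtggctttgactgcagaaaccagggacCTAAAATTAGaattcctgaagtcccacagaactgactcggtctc
Mcoln1: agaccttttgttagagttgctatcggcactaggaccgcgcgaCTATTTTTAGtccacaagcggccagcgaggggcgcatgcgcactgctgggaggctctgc
Lipa: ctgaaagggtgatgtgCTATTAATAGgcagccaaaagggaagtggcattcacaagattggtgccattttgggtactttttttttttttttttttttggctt

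The strongest peaks of Manba (chr3:135179981-135180081), Gnptab (chr10:87883559-87883659) and Tfeb (chr17:47905761-47905861) on mm9 lay in introns, and none of their windows held an exact match. Capitals mark a stretch that differs from the consensus by 1 base in Manba, a RUNX element (TGTGGTT) in Gnptab and an AP-1 element (TGANTCA) in Tfeb. A further stretch of the Manba window, ctattcatag, also differs by 1 base and is not marked. Stretches with at most 1 mismatch are common, found at 29.5% of member peaks and 23.6% of other peaks on mm9. The closest stretches of Gnptab and of this Tfeb peak differ from the consensus by 2 bases each.
Manba, strongest: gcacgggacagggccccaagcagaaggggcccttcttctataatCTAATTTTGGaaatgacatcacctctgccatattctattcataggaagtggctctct
Gnptab, strongest: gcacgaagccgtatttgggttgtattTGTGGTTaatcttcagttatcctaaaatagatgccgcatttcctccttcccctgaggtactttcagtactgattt
Tfeb, strongest: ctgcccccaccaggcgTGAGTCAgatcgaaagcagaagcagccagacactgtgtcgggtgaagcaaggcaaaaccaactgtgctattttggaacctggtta

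MEF2A peaks were assigned to 30 of the 37 lysosomal genes (81.1%), against 49.8% of the 21499 other protein-coding genes. A summit lay within 1 kb of a TSS for 20 members (54.1%), against 30.3% of other genes. The strongest peak was in the top 10% of the list, rank 3149 or better, for 9 members (24.3%), against 7.19%: Manba, Glb1, Gusb, Ctsh, Ctsz, Laptm5, Psap, Gnptab and Tfeb. Without Manba, whose strong peak was known beforehand, 29 of 36 members had a peak (80.6%) and 8 had one in the top 10% (22.2%). The other members were also chosen with earlier results of these data known, so leaving out Manba does not make these shares independent of the choice. Members held 2 or more peaks in 18 cases (48.6% against 28.0%) and 5 or more in 5 cases (13.5% against 6.06%), namely Glb1, Laptm5, Psap, Gnptab and Tfeb. Among genes with a peak, the strongest one had a median signal of 51.8 in members and 42.7 in others, at the top 26.5% and 36.6% of the list. The median gene length was 18.6 kb in members and 17.3 kb in others. Of the 9 members in the top 10%, Manba, Glb1, Gnptab and Tfeb spanned 55.4 to 85.8 kb and the rest 11.5 to 25.0 kb. The part of gene length in these shares was not tested. Expression and open chromatin were not measured in this series, so their part in these shares was not tested.

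On mm9, whose list is shorter and whose TSSs came from all protein-coding transcripts, 25 of the 37 genes had a peak (67.6%, against 33.3% of 22182 other genes). A summit within 1 kb was found for 15 (40.5% against 16.5%) and a peak in the top 10% for 8 (21.6% against 4.09%). There 11 members had 2 or more peaks (29.7% against 13.1%) and 3 had 5 or more (8.11% against 2.04%). The median gene length on mm9 was 18.6 kb in members and 15.2 kb in others. Of the 30 genes with an optimal peak, 5 had none on mm9: Man2b1, Smpd1, Lgmn, Lamp2 and Laptm4a.

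The strongest member peak was in the gene of a glycosidase. Manba encodes beta-mannosidase, which removes mannose from degraded glycoproteins. Its peak (chr3:135516884-135517207, mm10) ranked 2 of the intervals called in replicate 1, with a signal of 234, and 19 in replicate 2, with a signal of 228. Both replicates thus placed it near the top of their lists. In the optimal set it had a signal of 463 and rank 5, with its summit inside the gene, 31453 bp from the Manba TSS, which is also the nearest TSS of any gene. Weaker Manba peaks of 40.0 and 30.2 in that set lay farther into the gene, at 36525 and 39186 bp from the TSS, and none lay at the promoter. On mm9 a further weak peak (rank 16407) lay nearer the TSS than the strongest peak, at 20075 bp.

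The regulators of lysosome formation carried the next strongest peaks, and with 10 for Gnptab and 9 for Tfeb they were, with Laptm5, the members with the most peaks. The Gnptab peak (chr10:88420707-88420987, mm10) ranked 20 in replicate 1 and 26 in replicate 2, with signals of 176 and 223. It was equally near the top in both. In the optimal set its signal was 399 (rank 20). It lay in the gene 41583 bp from the Gnptab TSS, and the TSS of Sycp3, which encodes a meiotic chromosome protein, was slightly nearer at 38736 bp. Its 10 peaks had signals from 12.6 to 399, and 1 of them (50.2) lay 114 bp upstream of the TSS.

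Tfeb encodes the transcription factor that switches on many lysosomal genes. Its strongest peak (chr17:47768741-47769002, mm10) ranked 66 in replicate 1 and 203 in replicate 2, with signals of 148 and 169.5. Both replicates placed it among their strongest intervals, replicate 1 higher. In the optimal set it had a signal of 318 (rank 116), inside the gene and 16883 bp from the nearest Tfeb TSS of the mm10 table. On mm9, where every transcript start was used, the strongest Tfeb peak ranked 79 and lay 376 bp from a Tfeb TSS. The distances on the 2 builds thus rest on different sets of TSSs.

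Among the other glycosidases, Glb1, Gusb and Galc were among the 12 members with the highest signal. Glb1 encodes lysosomal beta-galactosidase. Its strongest peak (chr9:114452632-114452734, mm10) ranked 1347 in replicate 1 and 669 in replicate 2, with signals of 52.5 and 119.5. Its signal in the optimal set was 169 (rank 901). With the TSSs of the mm10 table, all 6 Glb1 peaks lay in the gene over 50 kb from its TSS. For each of them the nearest TSS was that of Ccr4, a chemokine receptor. On mm9, Glb1 itself had the nearest TSS for its peaks of rank 1095 and 10601, at 41167 and 40265 bp. Ccr4 had it for those of rank 1384 and 3076. When each mm10 peak was given to the gene with the nearest TSS alone, Glb1 had none, and 29 members had a peak (49.4% of other genes did).

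Gusb encodes beta-glucuronidase. Its main peak (chr5:130002892-130003251, mm10) ranked 1406 in replicate 1 and 1587 in replicate 2, with signals of 51.3 and 83.0, and its signal in the optimal set was 133 (rank 1488). The summit lay 23 bp upstream of the TSS. With the TSSs of the mm10 table it was the strongest member peak within 1 kb of a TSS and the only one of them in the top 10%, whereas on mm9 the strongest Tfeb peak, which ranked above it, also lay within 1 kb. Galc, the enzyme that degrades galactosylceramide, had a peak of 81.3 (rank 3772, chr12:98249711-98250070, mm10) in the gene 9568 bp from its TSS. It ranked 4358 in replicate 1 and 3734 in replicate 2, with signals of 28.7 and 53.4. The remaining glycosidases and sulfatases with a peak were Arsb, Gaa, Naglu, Man2b1 and Neu1, whose strongest signals ran from 60.9 down to 26.7. The Arsb peak lay 82277 bp into the gene, that of Gaa, the acid alpha-glucosidase, 22 bp upstream of the TSS. Hexa, Gla and Arsa had none.

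Cathepsins and other proteases had peaks in 8 of 10 cases, 6 of them within 1 kb of a TSS. Ctsz encodes cathepsin Z, a carboxypeptidase. Its strongest peak (chr2:174442454-174442645, mm10) ranked 500 in replicate 1 and 602 in replicate 2, with signals of 81.9 and 125, and stood at 206 (rank 527) in the optimal set, 3515 bp upstream of the TSS. The interval also lay within 10 kb of Tubb1, a tubulin gene. Ctsh, encoding cathepsin H, an aminopeptidase, had 1 peak (100.1, rank 2609, chr9:90060023-90060382, mm10), in the gene 5936 bp from its TSS. It ranked 4356 in replicate 1 and 2505 in replicate 2, with signals of 28.7 and 65.9, and at the top 8.28% it was the last member inside the 10% limit.

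The serine protease gene Ctsa, whose product also protects neuraminidase and beta-galactosidase, had a peak of 73.8 (rank 4508) 313 bp upstream of its TSS. That summit was nearer to the TSS of Neurl2, at 136 bp. It was also the most uneven of the stronger protease peaks, with ranks of 10366 in replicate 1 and 3399 in replicate 2. Ctsc (52.3), which activates serine proteases of immune cells, and Ctss (35.0), the main protease of the invariant chain in B cells, had their strongest peaks 63 and 19 bp downstream of the TSS. Ctsb had 4 peaks of 28.9 to 51.2, and Lgmn, an asparaginyl endopeptidase, had 1 of rank 14445. The stronger Tpp1 peak (43.2) lay 48 bp from the TSS of Taf10, which encodes a subunit of a general transcription factor, whereas the Tpp1 promoter peak had a signal of 26.5. Ctsd and Ctsl had none.

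Of 7 membrane protein genes, 6 had a peak. Laptm5, which encodes a lysosomal protein of blood cells that lowers surface B cell receptor, had 10. The strongest (chr4:130905268-130905360, mm10) ranked 638 in replicate 1 and 658 in replicate 2, with signals of 74.0 and 121. The replicates placed it almost equally. Its signal in the optimal set was 195 (rank 636), 8008 bp upstream of the TSS, and 3 more Laptm5 peaks (123, 108 and 102) were in the top 10%. The peak nearest the TSS, 68 bp upstream, had a signal of 45.2.

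Mcoln1 encodes the channel that releases calcium from lysosomes. It had 1 peak (chr8:3500189-3500548, mm10), ranked 4730 in replicate 1 and 3046 in replicate 2, with signals of 27.5 and 60.0. In the optimal set its signal was 89.1 and its rank 3245, at the top 10.3% and so just outside the limit, and its summit lay 150 bp upstream of the TSS. Npc1, a cholesterol exporter, had a peak of 50.6 at 5 bp from its TSS, with unlike ranks of 30596 in replicate 1 and 5789 in replicate 2. Lamp1 (34.6) and Lamp2 (34.9), the main glycoproteins of the lysosomal membrane, had 1 peak each near the median of the list. That of Lamp1 lay 10 bp upstream of the TSS and that of Lamp2 in the gene, 25163 bp from it. The Laptm4a peak had a signal of 29.6. Cd63, a tetraspanin of late endosomes, had none.

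The 3 genes of soluble proteins without enzyme activity all had peaks. Psap encodes prosaposin, the precursor of the saposins that present lipids to hydrolases. Its strongest peak (chr10:60286037-60286396, mm10) ranked 1248 in replicate 1 and 2229 in replicate 2, with signals of 54.6 and 69.9. It had a signal of 124 (rank 1727) in the optimal set, in the gene 1756 bp from a TSS, and 4 weaker peaks of 26.2 to 43.1 accompanied it. Grn, which encodes progranulin, had a peak of 87.1 (rank 3364, top 10.7%, chr11:102432030-102432389, mm10) in the gene, 1703 bp from a TSS. It ranked 1772 in replicate 1 and 7049 in replicate 2, with signals of 45.8 and 37.5. Npc2, the soluble cholesterol carrier, had peaks of 48.9 and 35.4.

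Of the 3 lipid hydrolase genes, Lipa, the acid lipase, had peaks of 45.5 and 27.0 in the gene. Smpd1, acid sphingomyelinase, had 1 of 25.4 at 9 bp from its TSS, where replicate 1 ranked it 65072 and replicate 2 15283. Asah1, acid ceramidase, had none in the optimal set.

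**Figure D1:**
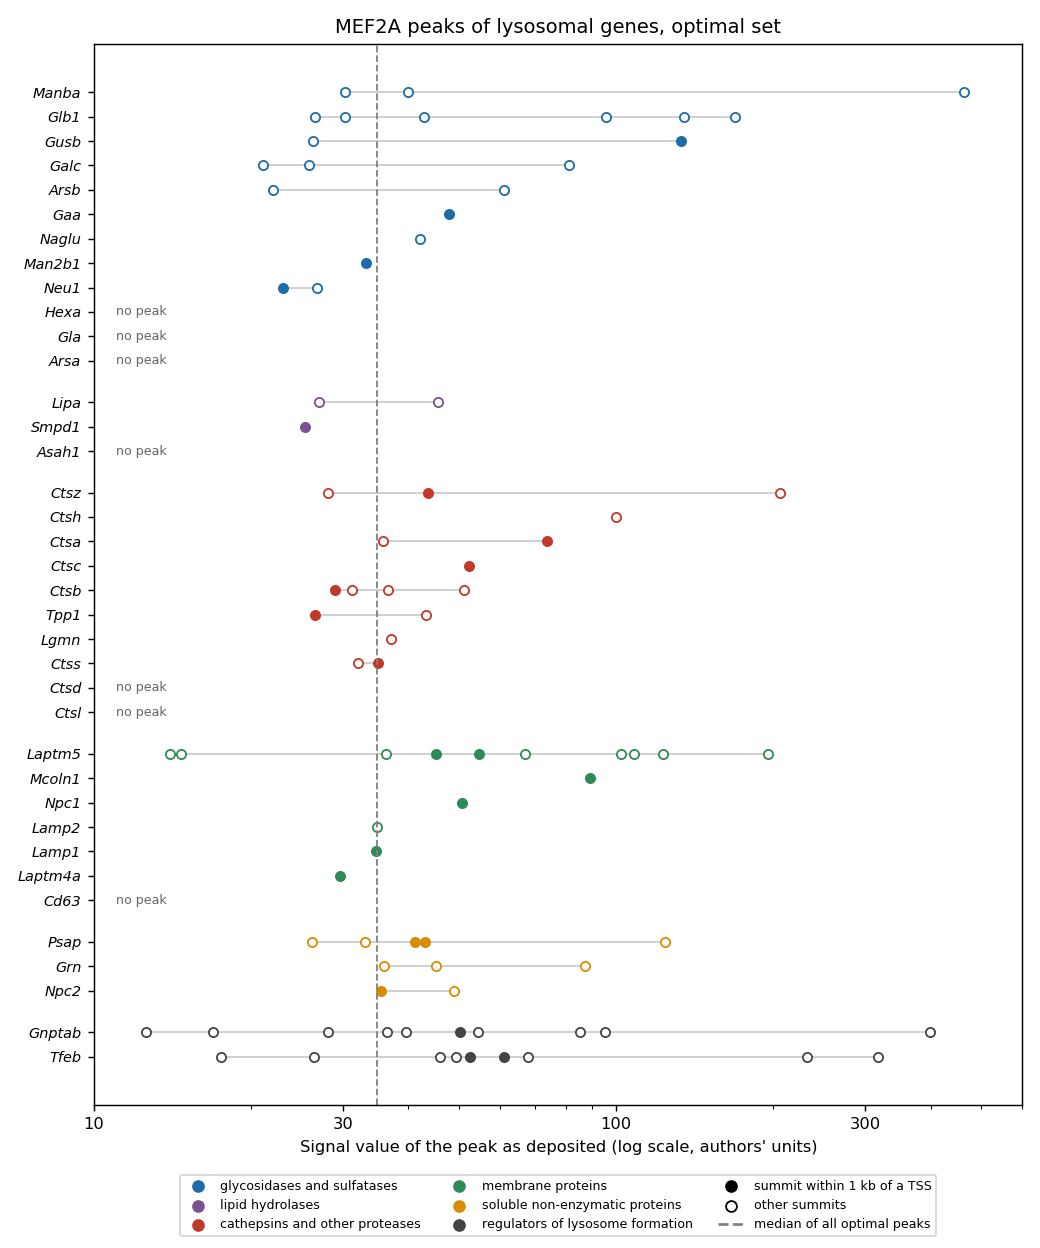
Signal value (authors' units, log scale) of each optimal peak of the 37 lysosomal genes, grouped by role, with filled points for summits within 1 kb of a TSS and a dashed line at the median of all optimal peaks (34.9). The highest points are open, in Manba (463), Gnptab (399) and Tfeb (318), and 7 genes have no peak.

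Of the 12 members with the highest signal, Gusb and Mcoln1 had the strongest peak within 1 kb of a TSS (16.7%), against 9 of the other 18, whose strongest signals were 25.4 to 73.8. Other genes split at the same rank, 3772, had shares of 15.0% and 46.2%, so this pattern was near the background. On mm9, with the TSSs of all transcripts, 4 of the 12 strongest members (33.3%) and 6 of the other 13 (46.2%) had it there, against 19.3% and 44.8% of other genes. Counting all 84 distinct member peaks, 23 lay within 1 kb of a TSS (27.4%), 48 elsewhere in the gene (57.1%) and 12 upstream (14.3%). For the 22634 peaks assigned only to other genes the shares were 33.6%, 54.0% and 10.7%. The 2 sets were placed by unlike rules: member peaks by the TSS of the member, other peaks by the closest of their assigned genes. Member peaks of Galc, Ctsa and Tpp1 that lay 167, 285 and 48 bp from the TSS of a neighbouring gene were thus counted outside 1 kb. The shares within 1 kb can therefore not be compared directly. With summits within 10 kb of a TSS alone, 5 members kept a peak in the top 10% (Gusb, Ctsh, Ctsz, Laptm5 and Psap), against 4.00% of other genes, a count that leaves out Tfeb, whose strongest mm9 peak lay 376 bp from a TSS. By the same rule Manba, Glb1, Arsb, Lgmn and Lamp2 lost their peaks altogether, which left 25 members with one (43.3% of other genes). Of the stronger 50% of optimal peaks, members kept at least 1 in 25 cases, against 32.2% of other genes. At the 10 kb limit, the weaker Ctsa peak lay just inside, at 9901 bp. The peaks nearest to Cd63 and Gla lay beyond the limit, at 13967 and 15405 bp.

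**Figure D2:**
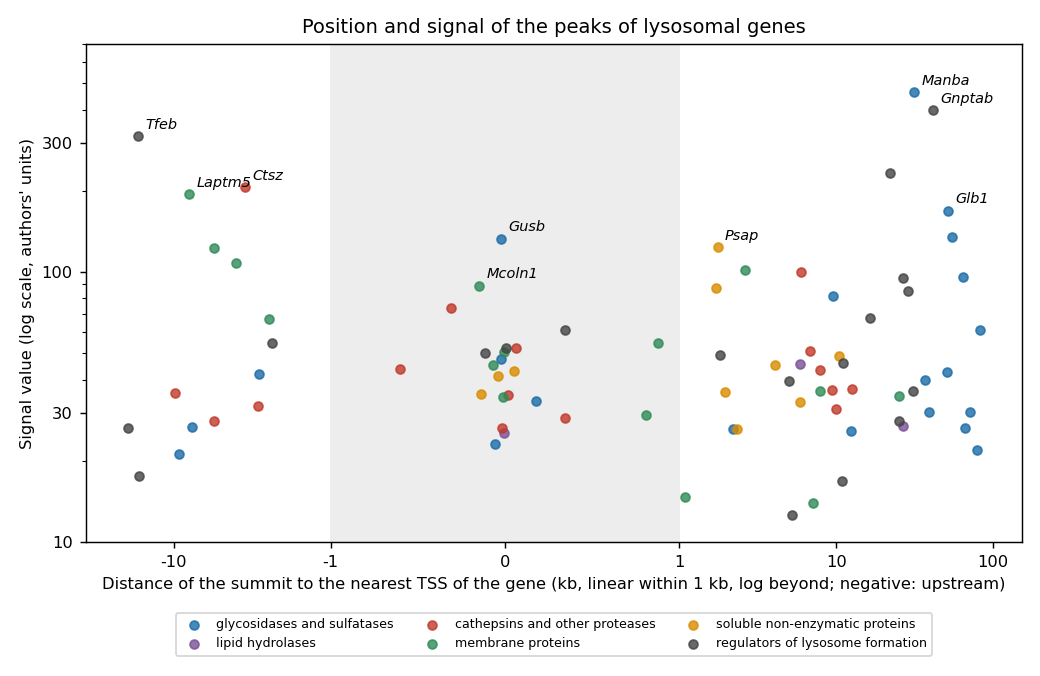
Distance of each member summit to the nearest TSS of its gene (kb, linear within 1 kb and log beyond, negative upstream) against its signal value (authors' units, log scale), coloured by role. Within the shaded 1 kb the highest points are Gusb (133) and Mcoln1 (89.1), whereas Manba (463) and Gnptab (399) lie over 30 kb into their genes.

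The 84 peaks were found again in the replicate lists. An interval of both replicates overlapped 83 of them (98.8%, against 97.6% of the peaks of other genes), and 69 (82.1% against 72.5%) were also in the conservative IDR set with the same coordinates. These relaxed lists hold 300000 intervals each, so an overlap alone says little, and the ranks were compared. The median ratio of the higher to the lower rank was 1.56 in members and 1.72 in other genes, and it was over 2 in 28 member peaks (33.7% against 39.6%). Spearman's rho between the replicates' ranks was 0.81 over the 83 member peaks and 0.57 over 22098 others, given as a description. Member peaks also had a higher median signal, 43.0 against 34.1. The part of signal in the agreement between replicates was not tested. Neighbouring peaks in Laptm5, Grn, Gnptab and Tfeb overlapped and shared a replicate interval, so these points are not independent. The Neu1 promoter peak was among the uneven ones and ranked 213065 in replicate 1 and 19362 in replicate 2. Smpd1, Lamp2 and Laptm4a had a peak in the optimal but not in the conservative set, and with the strongest intervals of replicate 1 alone, as many as the optimal set holds, Neu1, Smpd1 and Laptm4a had none. Counted that way, 31 members had a peak in replicate 1 alone and 32 in replicate 2 alone, against 50.8% and 50.9% of other genes.

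**Figure D3:**
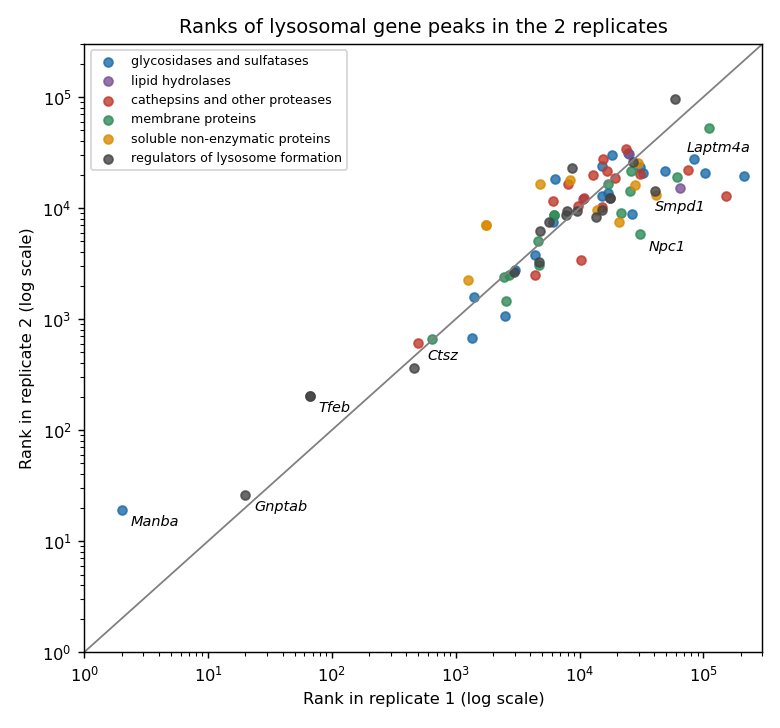
Rank of each of the 83 matched member peaks in replicate 1 (x axis) and replicate 2 (y axis), both log scale, with the line of equal rank. Manba (2 and 19), Gnptab (20 and 26) and Tfeb (66 and 203) lie at the strong end, and Smpd1 (65072 and 15283), Laptm4a (61348 and 18864) and Npc1 (30596 and 5789) lie off the line.

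The 7 members without an optimal peak were Hexa, Gla, Arsa, Asah1, Ctsd, Ctsl and Cd63. Ctsd, encoding cathepsin D, had replicate intervals at its promoter, 168 and 126 bp from the TSS, ranked 21619 in replicate 1 and 21336 in replicate 2. Asah1 had an interval in the gene, 23153 and 22960 bp from the TSS, ranked 14212 and 28244, and had a peak in the conservative set. For both genes each replicate alone gave a peak at the length of the optimal list. Arsa was uneven, with ranks of 10063 in replicate 1 and 89109 in replicate 2, as was Gla with 25936 and 56989. Hexa, Ctsl and Cd63 had no interval stronger than rank 48190 in either replicate. No optimal peak lay within 50 kb of Arsa, Ctsd or Ctsl.

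On mm9, 5 of the 61 member peaks (8.20%) held the MEF2 consensus at most 50 bp from the summit, against 7.13% of 16778 other peaks, a share near the background. The windows shown above are those of Laptm5 (TTATTTTTAG, rank 1397), Psap (CTAAAATTAG, rank 1655), Mcoln1 (CTATTTTTAG, rank 3731) and Lipa (CTATTAATAG, rank 8014). At Mcoln1 the element lay 3 bp from the summit, the closest of these 4, and at Lipa 29 bp, the farthest. The Mcoln1 summit lay 88 bp from a TSS on mm9, the nearest of these 4. No match says only that these letters were not in the window.

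The E-box bound by TFEB and its relatives was searched in RefSeq promoter windows (GRCm38.p6, 250 bases before the TSS to 50 after), on both strands, and was found in 11 of the 33 members that had a sequence (33.3%), against 8.87% of 17459 other promoters. The longer form TCACGTGA, which contains the E-box, was in 4 (12.1% against 1.39%): Gla, Ctsa, Ctsd and Mcoln1. An optimal peak overlapped the promoter window of 16 of the 33, of which 4 had the E-box (Gaa, Ctsa, Lamp1 and Mcoln1), against 7 of the 17 without a peak. An overlap with the window need not cover the E-box, and the Ctsa peak ended upstream of both E-boxes there. Among other genes, split by the same rule, the E-box was in 13.3% of 4585 promoters overlapped by a peak and in 7.29% of 12874 without. The member counts are small, and the difference was not tested. The MEF2 consensus was in the promoter of Mcoln1 and of no other of the 33 (3.03%, against 3.27% of other promoters).

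The promoters of Mcoln1 and Lamp1 are shown because a MEF2A peak covered several E-boxes there, and in Mcoln1 the MEF2 consensus as well. Each is the 250 bases before the TSS on the plus strand of GRCm38.p6, at chr8:3500269-3500518 for Mcoln1 and chr8:13158911-13159160 for Lamp1. Capitals mark the E-boxes and, in Mcoln1, the MEF2 element. Counted upstream from the TSS, the Mcoln1 element begins at base 158 and its E-boxes at bases 71 and 45, and the Lamp1 E-boxes begin at bases 61, 45, 28 and 15.
Mcoln1 promoter: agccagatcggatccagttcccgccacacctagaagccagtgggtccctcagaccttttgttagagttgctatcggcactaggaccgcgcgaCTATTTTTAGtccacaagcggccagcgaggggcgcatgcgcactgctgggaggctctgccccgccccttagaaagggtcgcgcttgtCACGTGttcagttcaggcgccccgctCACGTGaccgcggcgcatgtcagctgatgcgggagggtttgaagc
Lamp1 promoter: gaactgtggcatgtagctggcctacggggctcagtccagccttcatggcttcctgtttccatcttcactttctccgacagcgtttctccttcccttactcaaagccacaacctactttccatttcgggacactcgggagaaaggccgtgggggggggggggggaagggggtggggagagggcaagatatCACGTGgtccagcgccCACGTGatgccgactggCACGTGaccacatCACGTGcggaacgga

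Further genes of lysosome function, from 4 lists outside the 37, also had peaks more often than the 49.8% of other genes. The counts were 13 of 17 V-ATPase subunit genes (76.5%), 22 of 30 other hydrolases and activators (73.3%), 14 of 18 other membrane proteins and transporters (77.8%) and 18 of 26 genes of sorting, TFEB relatives and mTORC1 docking (69.2%). The median gene lengths were, in the same order, 25.0, 14.7, 36.4 and 19.9 kb, against 17.3 kb in other genes. The part of gene length in these shares was not tested. In the top 10% the counts were 1 of 17 (5.88%), 4 of 30 (13.3%), 3 of 18 (16.7%) and 4 of 26 (15.4%), against 7.19%. On mm9 these counts were 1, 2, 1 and 3 (5.88%, 6.67%, 5.56% and 11.5%), against 4.09%. For genes with any peak, the V-ATPase share on mm9 was 35.3%, near its background of 33.3%, while the other 3 stood at 46.7%, 61.1% and 61.5%.

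**Figure D4:**
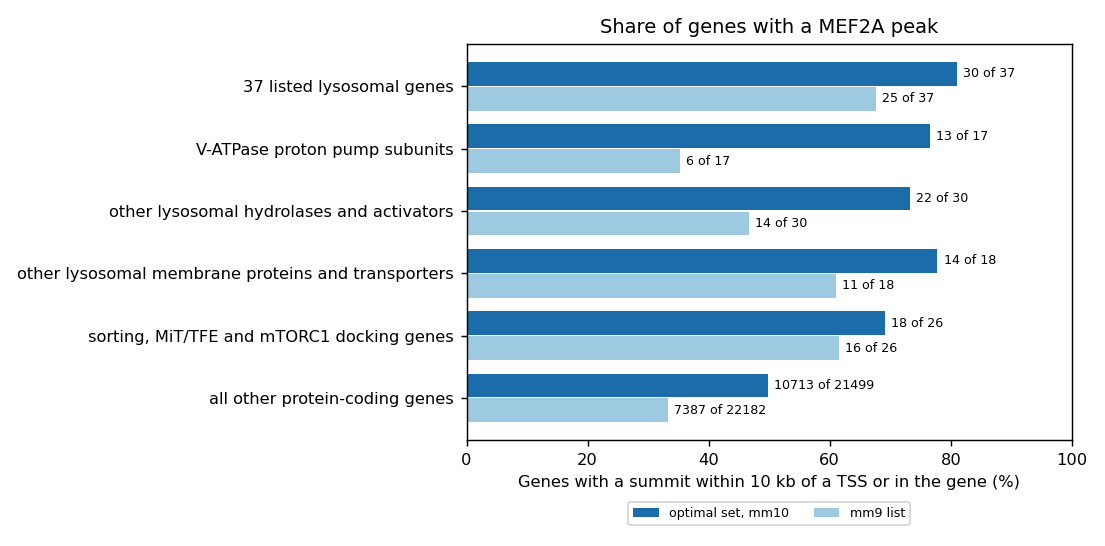
Share of genes (percent) with a summit within 10 kb of a TSS or in the gene, for the 37 lysosomal genes, the 4 further lysosomal lists and all other protein-coding genes, with dark bars for the optimal set on mm10 and light bars for the mm9 list. The 37 genes stand at 81.1% and 67.6% and the other protein-coding genes at 49.8% and 33.3%, and the V-ATPase genes show the widest gap between the lists (13 of 17 and 6 of 17).

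The V-ATPase acidifies the lysosome, and its membrane subunit gene Atp6v0a1 stood apart with a signal of 259, ranked 165 in replicate 1 and 431 in replicate 2. The next subunits, Atp6v1a, Atp6v1b2 and Atp6v1h, had 51.0, 49.0 and 43.7. Among hydrolases Ctso, encoding cathepsin O, had 264 (replicate ranks 331 and 251), and further down stood the sulfatase gene Galns (92.2) and the carboxypeptidase gene Scpep1 (90.8). The sialic acid exporter gene Slc17a5 led the transporters with 180.1 at 590 bp upstream of its TSS, ahead of the channel genes Mcoln3 (111) and Mcoln2 (91.9) and the nucleoside transporter gene Slc29a3 (70.7). In the last list Rraga (214), Rheb (195) and Rragc (93.3) encode GTPases that bring mTORC1 to the lysosome and activate it, and Mitf (136) encodes a relative of TFEB. The mTORC1 docking genes Rraga and Rheb thus ranked with Ctsz and Laptm5 in signal. The Rraga peak lay downstream of the gene, 4624 bp from its TSS. For the peaks of Atp6v1a, Atp6v1b2 and Galns the nearest TSS was that of another gene, namely Naa50, Slc18a1 and Trappc2l.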

How the data were processed

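MEF2A ChIP-seq peak lists of CH12.LX cells were used: 4 on mm10 (optimal and conservative IDR sets, and 1 relaxed list of each replicate) and 1 on mm9, with a pooled relaxed list not used. Per the file headers and the labels, the relaxed lists were called by the authors with a control file, both per sample and on pooled samples, and no control is named for mm9. The peak caller and aligner were not given in the sources used here. Signal values were kept as the authors deposited them. The score column deposited as a q-value reaches below 0 (-0.152) and only broke ties in rank.

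mm10 TSSs came from the RefSeq promoter table of GRCm38.p6 for 17492 genes and from the outermost gene end for 4044 (Asah1, Ctsb, Ctsh and Npc1 among the members). Strand for these came from GENCODE vM1. On mm9, GENCODE vM1 transcripts gave 22219 genes, and all 37 members matched. Builds were never converted. mm10 peaks matched replicate intervals by 1 bp or more. When 1 replicate was left out, the other's strongest intervals, as many as the optimal set holds, were used. Motifs were exact matches on both strands, within 50 bp of mm9 summits or in promoter windows of 300 bases. Coordinates are 1-based.

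Full values are given for the 12 members with the highest signal and for those with a promoter peak holding the MEF2 consensus; every member without a peak is named, and up to 4 genes per further list. Other genes named are the remaining members, or genes near the peaks of members and of the named genes of the further lists. Members and lists were chosen with earlier results of these data known. Of the 5 member peaks with the MEF2 consensus 1, and 1 gene of the further lists, are not reported here. Counting and motif steps were tested on simulated data. Python 3.11.15, numpy 2.4.6, pandas 2.3.3, pysam 0.24.0, scipy 1.17.1 and matplotlib 3.10.9 were used. With 1 group of 2 replicates no test was made, and the spread between cultures has no estimate beyond the paired ranks.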

Additional observations from a re-analysis of the deposited data

How the results depend on the processing

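The count of members with a peak was 20 to 34 over 10 alternatives, above the share of other genes in each. It was 31 to 32 with 1 replicate left out. The count within 1 kb was then 26 without replicate 1 (70.3% against 30.9% of other genes) and 24 without replicate 2 (64.9% against 32.0%). That in the top 10% was 10 (27.0% against 7.19%) and 9 (24.3% against 7.44%). Using the stronger 50% of optimal peaks, 13 members (35.1%) had a summit within 1 kb in place of 20 (54.1%). The share of other genes was then 15.2% in place of 30.3%. The members in the top 10% fell from 9 to 5 when summits within 10 kb of a TSS alone counted and to 1 (Gusb) within 1 kb, against 4.00% and 1.15% of other genes. Tfeb is in neither count with the mm10 TSSs, although its strongest mm9 peak lay 376 bp from a TSS. The median position of the strongest peaks, 26.5% in the list, was 30.1% on mm9, 14.3% among the stronger 50% of peaks, 35.6% within 1 kb, 25.3% within 50 kb (near the median of other genes there) and 29.3% to 30.6% with 1 replicate left out. Other genes stood at 36.6% in the optimal set, 38.1% without replicate 1 and 35.2% without replicate 2, so the gap was narrower with replicate 1 alone. Without Manba, an alternative also chosen after seeing the data, no count moved by over 1.5 times. The MEF2 core without its first and last base was in 8 member peaks (13.1% against 11.2%), the strict form in 4 (6.56% against 3.63%), and the consensus in 7 within 100 bp of the summit (11.5% against 8.88%) and in 6 over the whole interval (9.84% against 10.3%, below the background). With 1 mismatch allowed, an alternative chosen after seeing the data, it was in 18 (29.5% against 23.6%). Within 1 kb to either side of a TSS on mm9, 21 of 37 members held the E-box (56.8% against 33.8%). No paired analysis was possible because the 2 replicates form 1 group. Depth is unknown, so weak peaks cannot be told from missed ones.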

Other observations

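Elements of other factors were counted at the same 61 member peaks on mm9, on both strands within 50 bp of the summit. The RUNX element (TGTGGTT) was in 6 (9.84%, against 5.97% of 16778 other peaks), in peaks of Manba, Ctsb, Ctss, Gnptab and Tfeb. The PU.1 element (GAGGAAGT) was in 4 (6.56% against 3.23%), one each in Gusb, Ctsb, Ctss and Tfeb. AP-1 (TGANTCA) was in 6 (9.84% against 12.2%), in peaks of Manba, Glb1, Ctsb, Ctsz and Tfeb. The octamer (ATTTGCAT) and the E-box were in 1 each (1.64%, against 3.13% and 2.63%), and the ETS element CCGGAAGT was in 0 against 1.62%. Each count rests on 6 peaks or fewer and is given as a description, and several of the peaks share a gene.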
